A study of Mus musculus with 12 samples.

Results

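The histone genes described here are the 82 rows of the count table whose symbols begin with Hist1h, Hist2h, Hist3h, Hist4h, H1f, H2af or H3f, out of 23337 rows in all. The rule picks them by symbol and uses no measured value, although it was set with earlier results of these data known. Of them, 68 carry a name of the histone gene clusters (called Hist-named below) and 14 carry the name of a histone variant (variant-named). RNA was sequenced from NU1, a line of normal mouse urothelial cells, the lining cells of the bladder, that became immortal on serial passaging and stands here for 1 line only. The 4 groups of 3 libraries were proliferating cells with the control hairpin shNT (genotype labelled WT), proliferating cells with the hairpin sh4 against Stag2 (labelled Stag2-KD), and the same pair of cultures made quiescent. The product of Stag2 is part of cohesin, a ring-shaped complex on chromosomes. Both hairpins came from lentiviral vectors, and a single hairpin stands for the knockdown. Quiescent cells had grown to confluence and then received rosiglitazone at 1 µM, which activates PPAR gamma, and erlotinib at 0.5 µM, which blocks the EGF receptor kinase. Their titles give day 7. Each group has 1 library from each of experiments 5, 7 and 9, which are batches 3, 1 and 2 in the labels.

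Histones are the proteins around which DNA is wound, and most are made in bulk while DNA is copied. The messages of these replication-dependent genes do not end in a poly(A) tail. They are cut just after a short hairpin in the RNA, the stem-loop, which is bound by the protein Slbp and lets the message be destroyed when S phase ends. Variant histones such as H3.3 (H3f3a, H3f3b), H2A.Z (H2afz, H2afv), macroH2A (H2afy, H2afy2) and the linker histone H1.0 (H1f0) are made throughout the cell cycle from ordinary polyadenylated messages. Some replication-dependent genes can also be read through to a poly(A) site further on, above all in cells that leave the cycle, and H2afx is known for both kinds of message. The libraries were made from the poly(A)+ fraction of total RNA, so a message that ends at the stem-loop has no tail to be selected by.

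The sequences that set these classes apart are the stem-loop and the poly(A) signal. In GENCODE release M21 on GRCm38 (mm10), to whose symbols all 82 members matched, a stem of 6 paired bases around a loop of 4 was found in an annotated transcript of 46 of the 68 Hist-named genes and of 1 of the 14 variant-named genes, H2afx. Below, 6 are printed 5′ to 3′ on the gene's strand with 5 flanking bases on each side, and the capitals mark the stem and loop. They are the members with most counts that hold a stem-loop, the H4 gene Hist1h4i, the variant H2afx, and Hist1h3b as a gene with the same element and few counts.
Hist1h1c stem-loop, chr13:23739512-23739527, plus strand: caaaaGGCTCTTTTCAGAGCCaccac
Hist3h2a stem-loop, chr11:58955172-58955187, plus strand: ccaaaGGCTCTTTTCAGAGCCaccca
Hist2h3c1 stem-loop, chr3:96247327-96247342, plus strand: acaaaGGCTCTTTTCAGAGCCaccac
Hist1h4i stem-loop, chr13:22040966-22040981, minus strand: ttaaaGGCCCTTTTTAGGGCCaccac
H2afx stem-loop, chr9:44335240-44335255, plus strand: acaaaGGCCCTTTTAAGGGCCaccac
Hist1h3b stem-loop, chr13:23752820-23752835, plus strand: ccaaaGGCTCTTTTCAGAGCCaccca
Hist3h2a and Hist1h3b carry the same 26 letters, although Hist3h2a gave 5015 counts over the 12 libraries and Hist1h3b 25. Their annotated transcripts differ after the stem-loop: that of Hist3h2a runs on for 1643 bases and that of Hist1h3b for 51. Other long transcripts gave few counts, among them Hist2h4 (1257 bases after the stem-loop, 8 counts) and Hist1h2bh (1214 bases, 9 counts). What sets the counts of Hist3h2a and Hist1h3b apart was not tested.

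The last 30 bases of 4 annotated transcripts show the poly(A) signal, in capitals, that a tailed message of these genes could use. They belong to Hist-named genes with a signal (AATAAA or ATTAAA) in the last 50 bases.
Hist1h1c 3′ end, chr13:23740338-23740367, plus strand: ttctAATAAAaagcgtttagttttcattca
Hist2h3c1 3′ end, chr3:96248480-96248509, plus strand: taatcccAATAAAaatttaacacactgcta
Hist1h4i 3′ end, chr13:22040636-22040665, minus strand: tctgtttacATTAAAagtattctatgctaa
Hist2h2be 3′ end, chr3:96223709-96223738, plus strand: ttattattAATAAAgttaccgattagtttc
In these models the signal lies 840 bases or less past the Hist1h1c stem-loop, within 1167 bases of the Hist2h3c1 stem-loop and within 330 bases of the Hist1h4i stem-loop. Hist2h2be has no stem-loop in its annotated transcript.

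Library totals ran from 14524429 to 21987539 counts. Levels are CPM, counts divided by the TMM-scaled library total in units of 1e+06 counts, so a level is relative to all polyadenylated RNA of a library. In such bulk RNA, fewer cells of a kind and less of an RNA per cell cannot be told apart. Stag2 itself was at 133 ± 17.4 CPM (SD, n = 3) in proliferating controls and 27.6 ± 4.96 in proliferating knockdown cells, with a log2 fold change of -2.26 (edgeR adjusted p = 0.00121, SE 0.19). In quiescent cells the means were 121 ± 11.3 and 12.1 ± 2.95 CPM, with a log2 fold change of -3.32 (edgeR adjusted p = 3.39e-05, SE 0.20). Of 17 urothelial markers 14 were tested, led by the keratins Krt8 (4600.4 ± 1239 CPM in proliferating controls) and Krt18 (3781 ± 716), while the uroplakin genes Upk1b and Upk3a and the basal factor Trp63 were under the filter. Markers of fibroblasts, immune, endothelial and muscle cells summed to 2.50 to 11.0 CPM per library, and 4 of these 13 had no count in any library. The labels name separate experiments but not how the cultures were started, so p-values measure the spread between these libraries, which may be partly technical.

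The Hist-named genes gave very few counts in these libraries, and a handful of them gave nearly all of those. Over 12 libraries the 68 Hist-named rows summed to 23005 counts and the 14 variant-named rows to 410366. Hist1h1c, which encodes the linker histone H1.2, gave 9527 counts or 41.4% of the Hist-named total. Hist1h2bc, an H2B gene, gave 22.8%, Hist3h2a, an H2A gene of a small separate cluster, 21.8%, Hist2h2be, an H2B gene, 4.63%, and Hist2h3c1, an H3.2 gene, 2.40%. These 5 genes made up 93.1% of all Hist-named counts. At the other end, 54 Hist-named rows stayed under 10 counts in every library and 9 had no count at all. A row with no count in 207796550 counts in total allows a level of up to 0.0144 CPM, a floor of 3 counts that covers counting error only. It does not cover reads lost to shared sequence. All 50-base windows of Hist2h2aa1, Hist2h2aa2 and Hist2h3b, and 97.3% of those of Hist1h2bq, also occur in another gene. For Hist1h2ba, also without a count, the share was 38.2%. How such reads were assigned is not given in the sources used here, so a count of 0 there does not bound the level. Hist1h1c, Hist1h2bc, Hist3h2a and Hist2h2be, the Hist-named genes with most counts, are listed as known sources of tailed messages. Hist1h2ac, also listed, had 145 counts over all libraries. Other genes listed as such sources were sparse: Hist3h2ba had 78 counts over all libraries, Hist4h4 52, Hist1h2be 50, Hist2h4 8, Hist1h2bk 3, and Hist2h2aa1 and Hist2h2aa2 none.

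Which Hist-named genes were counted followed the annotated 3′ ends, given here as a description. The 18 genes whose annotated transcript runs 200 bases or more past the stem-loop had a median of 51 counts over all libraries, and 8 of them passed the filter on low counts. The 28 genes whose transcript stops sooner had a median of 5.5 counts, and 1 of them, the H4 gene Hist1h4h, passed. The 22 genes without a stem-loop in the annotated transcript had a median of 3.5 counts, and 2 of them, Hist1h2bc and Hist2h2be, passed. Some of these models are short and end before the RefSeq gene does, among them Hist1h2ai (393 bases), Hist1h3h (411) and Hist1h4k (312). A stem-loop could lie outside such a model, so this class is one of annotation. Divided by the poly(A) signal instead, the 17 Hist-named genes with AATAAA or ATTAAA in the last 50 bases had a median of 50 counts and the other 51 a median of 6. The signal was present in 11 of the 14 variant-named genes. The annotation the authors counted against is not given in the sources used here, and RefSeq ends many of these genes at the stem-loop: Hist1h1c spans 725 bases there and 1560 in GENCODE, Hist2h3c1 664 and 1825, and Hist3h2a 508 and 2146. A longer model can collect more reads, so the part of the annotation itself in these counts was not tested.

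**Figure D1:**
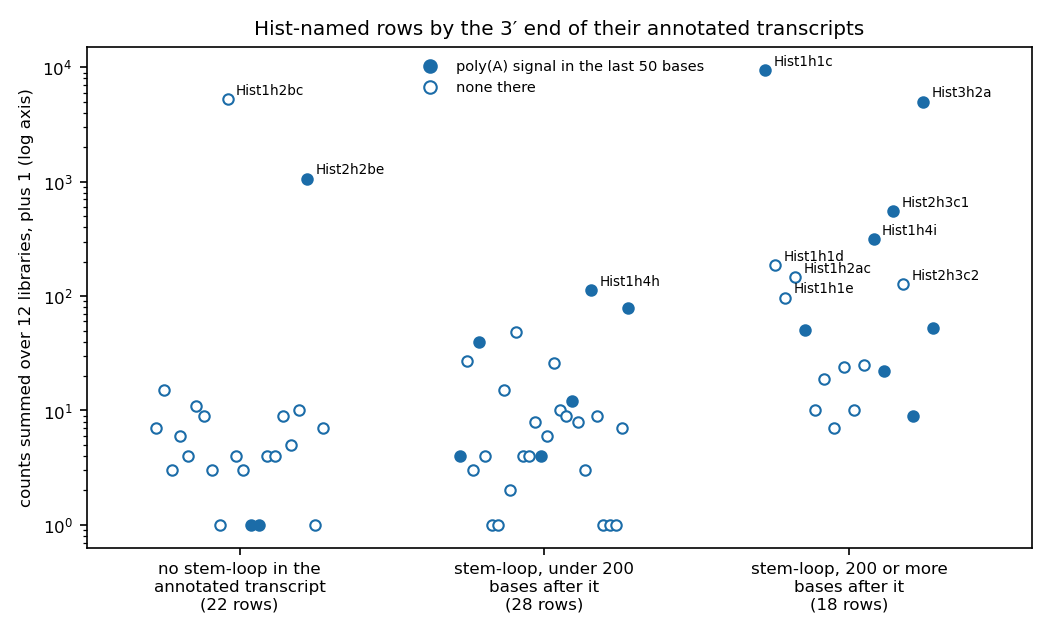
Counts summed over the 12 libraries, plus 1 on a log axis, for the 68 Hist-named rows, placed by the 3′ end of their annotated transcripts. Filled points have a poly(A) signal in the last 50 bases and labels name the tested genes. Of the 11 labelled genes, 8 stand in the class with 200 or more bases after the stem-loop.

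Sequence shared between members limits what a row can mean. Of all 50-base windows in their annotated exons, the median Hist-named gene had 51.9% that also occur in another gene, against 8.33% for the variant-named genes. Among the tested Hist-named genes this ran from 0% for Hist2h2be to 100% for Hist2h3c1, whose windows all lie in an overlapping gene model of the same locus, Gm20634. For Hist2h3c2, the neighbour of Hist2h3c1 on chromosome 3, it was 63.5%. For Hist3h2a it was 31.5%, with windows also found in Trim17. How such reads were assigned is not given in the sources used here. Single values of Hist2h3c1 and Hist2h3c2 are therefore uncertain, and those of Hist3h2a and other genes with shared windows carry the same doubt in part. The Hist-named genes lie on chromosome 13 (54 genes), chromosome 3 (10), chromosome 11 (3) and chromosome 6 (1).

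Quiescence came with a larger Hist-named sum and a smaller variant-named sum. The Hist-named rows summed to 61.4 ± 17.8 CPM (SD, n = 3) in proliferating controls and 127 ± 44.5 in quiescent controls. In knockdown cells the sums were 71.6 ± 21.8 CPM in proliferation and 174 ± 63.1 in quiescence. The quiescent library was above the proliferating library in each of the 3 experiments, by ratios of 2.08, 1.83 and 2.17 in controls and 2.78, 2.55 and 1.97 in knockdown cells for experiments 5, 7 and 9. Experiment 7 had the lowest Hist-named sum in every group, and its quiescent control at 75.1 CPM was close to the proliferating control of experiment 5 at 73.8 CPM. Variant-named rows summed to 2190.5 ± 172 CPM in proliferating and 1763 ± 17.8 in quiescent controls, with ratios of 0.813, 0.871 and 0.741 in experiments 5, 7 and 9. In knockdown cells those sums were 2140.3 ± 106 and 1786 ± 239 CPM. The variant-named sum was thus 37.7 ± 10.8 times the Hist-named sum in proliferating controls and 15.6 ± 7.03 times in quiescent controls. No test was made on these sums.

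The S phase genes went the other way from the Hist-named sum. The 25 S phase genes on the list, among them the replicative helicase gene Mcm5, the licensing gene Cdc6 and the ribonucleotide reductase gene Rrm2, summed to 2144 ± 222 CPM in proliferating and 378 ± 35.7 in quiescent controls. All 25 fell in quiescent controls, with a median log2 fold change of -2.53, and all 25 fell in quiescent knockdown cells, with a median of -1.93, beside 11.7% and 10.8% of all tested genes. Counts of other RNAs that lack a regular poly(A) tail were low, and whether they follow untailed histone messages was not tested. Without Malat1, a nuclear RNA with its own kind of 3′ end, the 14 other such RNAs in the table summed to 2.39 ± 1.30 CPM in proliferating and 2.31 ± 1.58 in quiescent controls, and to 2.17 ± 1.17 and 3.10 ± 2.31 in the knockdown groups. Malat1 was at 278 ± 144 CPM in proliferating and 450.0 ± 152 in quiescent controls, with an edgeR adjusted p of 0.257. The 57 Hist-named rows under the filter summed to 2.88 ± 0.514 CPM in proliferating and 2.22 ± 0.697 in quiescent controls. In knockdown cells these rows summed to 2.85 ± 1.17 CPM in proliferation and 3.79 ± 0.986 in quiescence. The filter itself shaped these sums, since a row higher in quiescence could pass through its quiescent libraries, as 5 of the 11 tested genes did.

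**Figure D2:**
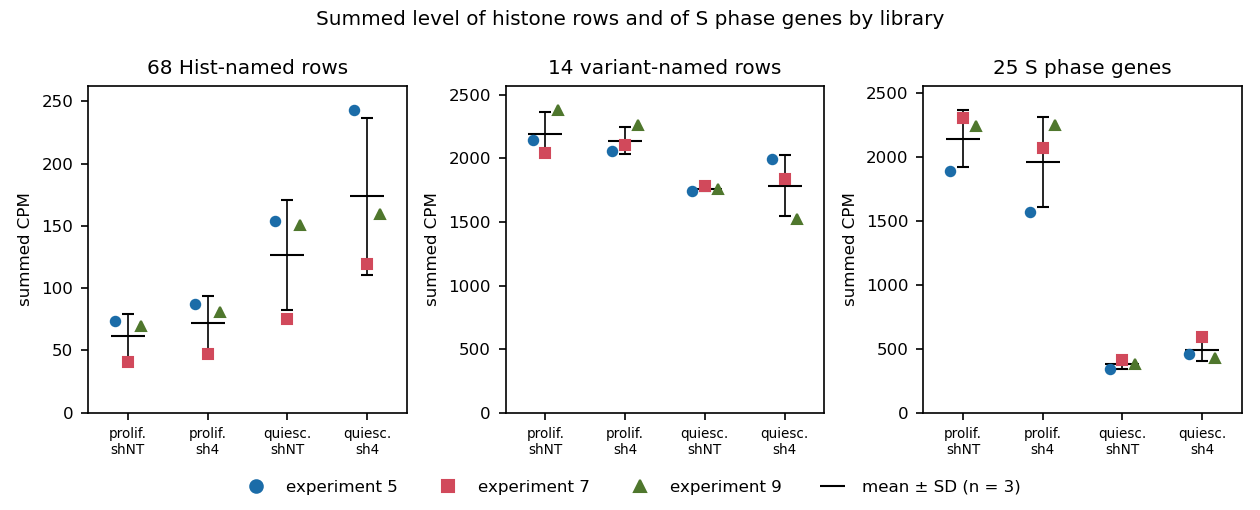
Summed CPM per library of the 68 Hist-named rows, the 14 variant-named rows and 25 S phase genes in the 4 groups. Points are libraries marked by experiment, and bars are the mean ± SD of 3. The Hist-named panel is higher in quiescence within each experiment, with experiment 7 lowest in each group, and the S phase panel falls from 2144 to 378 CPM in controls.

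The test across all genes was made on 12406 rows, among them 11 Hist-named and 9 variant-named members. In controls, 2 of the 11 tested Hist-named genes rose in quiescence and none fell (edgeR, adjusted p under 0.05), against 8.33% of all tested genes that rose and 11.7% that fell. With the experiment as a replicate block, 7 rose (Hist1h1c, Hist1h1d, Hist1h2ac, Hist1h2bc, Hist1h4h, Hist2h3c1 and Hist3h2a) and 1 fell (Hist2h2be), against 16.8% and 18.5% of all genes. In knockdown cells, 3 rose (Hist1h1d, Hist2h3c1 and Hist3h2a) against 7.59% of all genes, and none fell against 10.8%. With the block 8 rose and 1 fell there, against 15.9% and 17.2%. The median log2 fold change of the 11 was 1.29 in controls and 1.52 in knockdown cells, and 0.0047 and 0.0045 over all tested genes. These counts and medians support nothing by themselves, since 5 of the 11 genes (Hist1h1d, Hist1h1e, Hist1h2ac, Hist1h4h and Hist2h3c2) reached the filter's 0.585 CPM in fewer than 3 proliferating libraries and passed only with the quiescent ones. Over the other 6 the median was 1.13 in controls and 1.24 in knockdown cells, 1 rose in controls and 2 in knockdown cells and none fell, and with the block 4 rose and 1 fell in each.

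Hist3h2a (chr11:58954685-58956830) had the lowest adjusted p for quiescence among the Hist-named genes in both genotypes. It was at 14.1, 9.29 and 12.05 CPM in proliferating controls of experiments 5, 7 and 9 and at 32.4, 27.1 and 27.0 CPM in quiescent controls. The groups did not overlap, as for 17.1% of all tested genes that were higher in quiescent controls, and within experiments the quiescent library was higher by 1.15 to 1.53 on the log2 CPM scale. It rose 2.44-fold, a log2 fold change of 1.29 (edgeR adjusted p = 0.00554, SE 0.26). In knockdown cells it was at 16.96, 10.2 and 10.6 CPM in proliferation and 55.4, 33.2 and 35.3 CPM in quiescence, a 3.29-fold rise (log2 fold change 1.72, SE 0.26, edgeR adjusted p = 0.00155). It stayed past the threshold in both contrasts with each of the 12 libraries left out in turn.

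Hist1h1c (chr13:23738808-23740367), the H1.2 gene, showed how much the experiments differed. Its levels in experiments 5, 7 and 9 were 29.5, 10.8 and 27.3 CPM in proliferating controls and 71.6, 25.3 and 70.8 CPM in quiescent controls. The quiescent library of experiment 7 lay below both other proliferating libraries, so the groups overlapped, yet the within-experiment differences were nearly equal at 1.28, 1.22 and 1.37 on the log2 CPM scale. Without the block the log2 fold change was 1.31 (edgeR adjusted p = 0.0838, SE 0.49), and with it 1.30 (edgeR adjusted p = 0.000725, SE 0.20). In knockdown cells the levels were 34.5, 13.8 and 31.3 CPM in proliferation and 107, 53.1 and 63.3 CPM in quiescence, with a log2 fold change of 1.49 (edgeR adjusted p = 0.0579) and, with the block, 1.56 (adjusted p = 0.00026).

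Hist1h2bc (chr13:23684199-23692908), an H2B gene whose annotated transcript has no stem-loop, was also lowest in experiment 7 in every group. It was at 17.7, 9.18 and 16.1 CPM in proliferating controls and 31.5, 13.2 and 39.4 CPM in quiescent controls, with overlap through experiment 7. The log2 fold change was 0.97 (edgeR adjusted p = 0.169, SE 0.47), and 0.90 (edgeR adjusted p = 0.00193, SE 0.16) with the block. Hist2h3c1 (chr3:96246685-96248509), an H3.2 gene, was at 1.57, 0.462 and 1.48 CPM in proliferating controls and 4.90, 2.20 and 2.68 CPM in quiescent controls. The Hist2h3c1 groups did not overlap, and 17.1% of all tested genes were likewise higher in quiescent controls without overlap. The log2 fold change of Hist2h3c1 was 1.47 (edgeR adjusted p = 0.0755, SE 0.54) and passed the threshold with the block (adjusted p = 0.00365) and in knockdown cells (1.71, SE 0.53, edgeR adjusted p = 0.0452). That last call was lost in 7 of the 12 fits that left out 1 library, and without quiescent knockdown replicate 5 the value was 1.21 (edgeR adjusted p = 0.184).

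Hist2h2be (chr3:96221119-96223738), an H2B gene without an annotated stem-loop and without shared windows, went the other way. It was at 5.22, 7.04 and 6.08 CPM in proliferating controls and 4.14, 3.73 and 4.47 CPM in quiescent controls, and the groups did not overlap, as for 18.5% of all tested genes that were lower. In knockdown cells it was at 5.95, 6.55 and 5.85 CPM against 4.44, 4.23 and 3.81 CPM, again without overlap (19.1% of all tested genes). The log2 fold changes were -0.57 (edgeR adjusted p = 0.0703, SE 0.20) and -0.55 (edgeR adjusted p = 0.0808, SE 0.20), and both passed with the block (adjusted p = 0.0387 and 0.0430).

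Hist1h4h (chr13:23531050-23531519), an H4 gene, passed the test in controls at very low counts. Like Hist1h1d, Hist1h1e, Hist1h2ac and Hist2h3c2 it entered the test only through its quiescent libraries, so a higher level in quiescence was a condition of being tested, and the p-values of these 5 genes for quiescence support nothing by themselves. Hist1h4h had 2, 2 and 5 counts in proliferating controls of experiments 5, 7 and 9 and 10, 6 and 24 counts in quiescent controls. The log2 fold change was 2.24 (edgeR adjusted p = 0.0494, SE 0.72), and 10 of the 12 fits that left out 1 library put it above the threshold, with adjusted p of up to 0.188 without quiescent control replicate 9. The values of Hist1h1d, Hist1h1e and Hist2h3c2 are given although they fall outside the naming rule, chosen after they were seen. Hist1h1d, the H1.3 gene, had 8, 2 and 5 counts in proliferating and 18, 7 and 14 in quiescent controls, and in knockdown cells 9, 6 and 10 and then 62, 31 and 14. Its log2 fold change in knockdown cells was 1.90 (edgeR adjusted p = 0.0449, SE 0.59), a call that 8 of the 12 fits without 1 library did not keep, with 1.44 and an adjusted p of 0.177 without quiescent knockdown replicate 5. Hist1h2ac, the H2A gene that sits next to Hist1h2bc, had 10, 3 and 3 counts in proliferating and 26, 7 and 17 in quiescent controls, with a log2 fold change of 1.80 (edgeR adjusted p = 0.147, SE 0.83) and, with the block, an adjusted p of 0.00864. Hist2h3c2, an H3.2 gene, had 7, 1 and 5 against 13, 5 and 6 counts in controls and 8, 0 and 4 against 44, 9 and 24 counts in knockdown cells, where the log2 fold change with the block was 2.54 (edgeR adjusted p = 0.00332). Hist1h1e, the H1.4 gene, had 0 to 17 counts in the proliferating libraries and 1 to 22 in the quiescent ones, and passed in neither contrast.

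**Figure D3:**
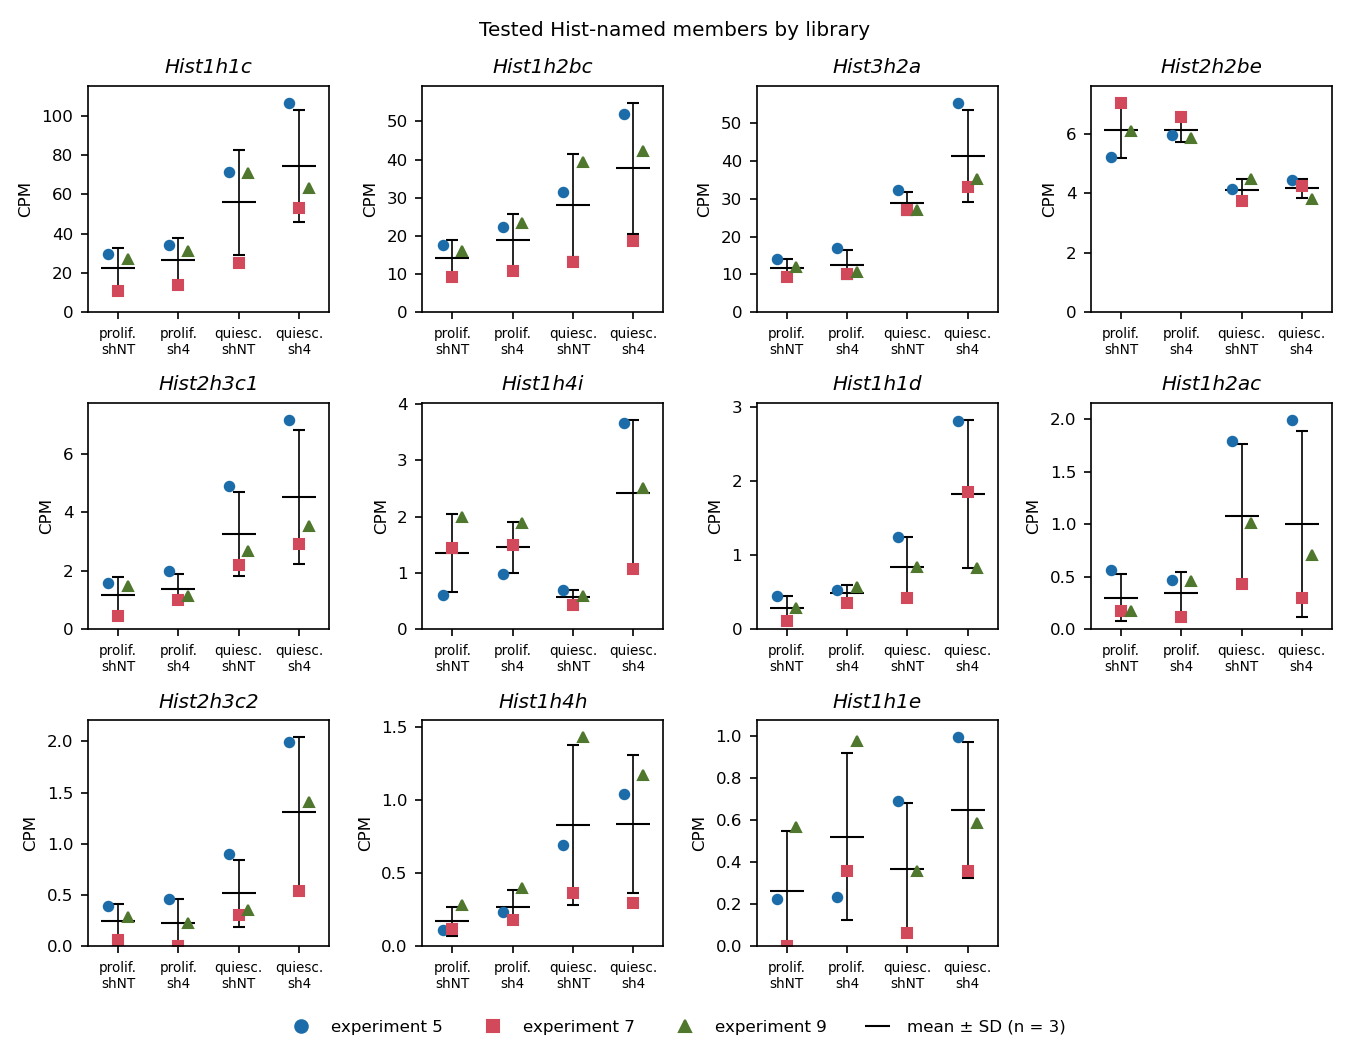
CPM per library of the 11 tested Hist-named genes, each panel with its own axis from 0, marked by experiment, with the mean ± SD of 3 libraries. Hist3h2a lies at 9.29 to 16.96 CPM in proliferation and 27.0 to 55.4 CPM in quiescence, Hist2h2be is lower in quiescence, and experiment 7 lies lowest in most panels.

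The experiments ranked alike across Hist-named genes. Experiment 7 gave the lowest library in at least 3 of the 4 groups for 9 of the 11 tested Hist-named genes, and in all 4 groups for 4 of them (Hist1h1c, Hist1h2bc, Hist2h3c1 and Hist2h3c2). Experiment 5 gave the highest library in all 4 groups for 5 of the 11. Among the 9 tested variant-named genes none had experiment 7 lowest in 3 or more groups. These ranks were not counted over all tested genes, where same-numbered libraries also moved together (mean r of 0.526). The level of untailed RNAs without Malat1 was highest in experiment 9 in every group and lowest in experiment 5, on 17 to 97 counts per library. What made experiment 7 low in Hist-named counts was not tested.

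Levels per length place the Hist-named genes against the variants. Per kilobase of GENCODE exon sequence and averaged over all 12 libraries, H3f3b stood at 340.4 CPM per kb, H2afz at 172, H1f0 at 63.8 and H3f3a at 58.6. Hist1h1c was at 28.7 CPM per kb, H2afy at 28.3, H2afv at 27.5, Hist1h2bc at 21.4 and H2afx at 20.997. Hist3h2a was at 11.0 CPM per kb, and Hist1h4i, Hist2h2be and Hist2h3c1 at 1.99, 1.96 and 1.42. With the RefSeq span as the length, Hist1h1c would be at 61.9 CPM per kb, Hist3h2a at 46.5, Hist1h2bc at 2.99 and H2afz at 125. This span includes introns, and for Hist1h2bc it is 8282 bases against 1156 of GENCODE exon sequence. It was not used for variant-named genes with long loci. With the longest transcript as the length H2afy would be at 47.99 CPM per kb and H2afz at 286, so the order of these genes depends on the length used. The RefSeq span was added as an alternative after the data were seen.

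Among the variants, H2afz and H2afx fell in quiescence and the other 7 tested genes did not pass the test in controls, against 11.7% of all genes that fell. H2afz (chr3:137864487-137866922) encodes H2A.Z, placed at promoters and known to be made most in dividing cells. It was at 359, 423 and 476 CPM in proliferating controls and 200.3, 193 and 187 CPM in quiescent controls, and the groups did not overlap. Of all tested genes, 18.5% were lower in quiescent controls without overlap. The log2 fold change was -1.11 (edgeR adjusted p = 0.00134, SE 0.17), and in knockdown cells -0.88 (edgeR adjusted p = 0.00513, SE 0.17). H2afx (chr9:44334694-44336077) encodes H2AX, the histone phosphorylated at DNA breaks. It was at 35.6, 48.6 and 47.2 CPM in proliferating and 21.5, 21.4 and 16.7 CPM in quiescent controls, again without overlap, with a log2 fold change of -1.14 (edgeR adjusted p = 0.00524, SE 0.23). In knockdown cells it was at 27.7, 37.8 and 33.5 CPM against 22.8, 23.0 and 13.1 CPM, with a log2 fold change of -0.75 (edgeR adjusted p = 0.0390, SE 0.22), a call that 7 of the 12 fits leaving out 1 library did not keep (adjusted p of up to 0.133).

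H2afx is thus the stem-loop gene among the variants, and its sign was opposite to that of Hist3h2a and Hist1h1c, whose annotated transcripts also run past the stem-loop, a difference that was not tested. The second H2A.Z gene, H2afv, did not pass the test. It was at 48.6, 46.4 and 42.0 CPM in proliferating and 40.4, 34.9 and 44.9 CPM in quiescent controls, with a log2 fold change of -0.19 (edgeR adjusted p = 0.3496, SE 0.14). The difference between H2afz and H2afv was not tested.

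The H3.3 genes, which supply H3 outside S phase, did not pass the test. H3f3b (chr11:116021912-116027962) was at 1082, 988 and 1174 CPM in proliferating and 954, 1009 and 905 CPM in quiescent controls, with a log2 fold change of -0.18 (edgeR adjusted p = 0.395, SE 0.14). H3f3a (chr1:180800832-180813943) was at 245, 179.9 and 151 CPM against 227, 183 and 229 CPM, with a log2 fold change of 0.15 (edgeR adjusted p = 0.643, SE 0.21). In both genes the groups overlapped.

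H1f0 (chr15:79028450-79030504), the replacement linker histone known to build up in cells that stop dividing, did not pass the test. It was at 166, 127 and 166 CPM in proliferating and 101, 137 and 116 CPM in quiescent controls, with a log2 fold change of -0.37 (edgeR adjusted p = 0.182, SE 0.19). Experiment 7 went against the other 2 experiments, with 127 and 137 CPM. In knockdown cells H1f0 was at 153, 124 and 149.8 CPM against 96.0, 142 and 93.7 CPM, with the same split between experiments. H2afj, an H2A variant described in senescent cells, was at 31.3, 34.4 and 66.7 CPM against 35.8, 45.9 and 55.2 CPM in controls, with a log2 fold change of 0.05 (edgeR adjusted p = 0.918, SE 0.27).

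The macroH2A genes encode H2A variants with a large extra domain, found on silent chromatin. H2afy (chr13:56073619-56136361) was at 177, 196 and 241 CPM in proliferating and 164, 154 and 199 CPM in quiescent controls, with a log2 fold change of -0.25 (edgeR adjusted p = 0.307, SE 0.16). H2afy2 (chr10:61738665-61784147) was governed by the experiment: it was at 1.68, 2.25 and 15.4 CPM in proliferating and 0.966, 1.41 and 9.60 CPM in quiescent controls, and experiment 9 was highest in every group. Its log2 fold change was -0.68 (edgeR adjusted p = 0.729, SE 1.21), and in knockdown cells, with the block, -1.04 (edgeR adjusted p = 0.0205, SE 0.29). Without proliferating control replicate 9 the value in controls turned to 1.02, and without proliferating knockdown replicate 9 that in knockdown cells turned to 0.65. The 5 variant-named rows under the filter were H1fnt, H1foo, H1fx, H2afb1 and H2afy3, named after their counts were seen, with 0 to 24 counts each over all libraries.

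**Figure D4:**
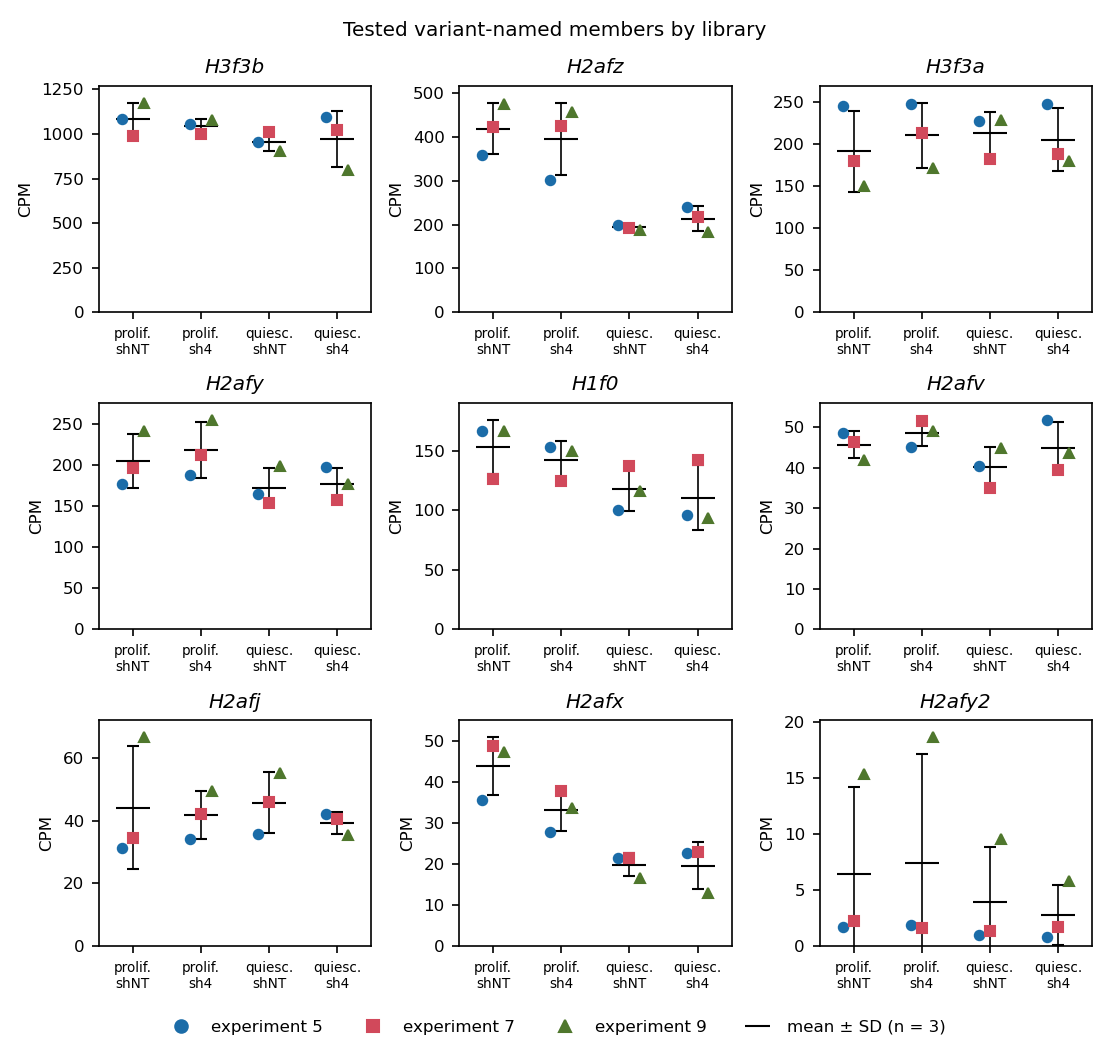
CPM per library of the 9 tested variant-named genes, each panel with its own axis from 0, marked by experiment, with the mean ± SD of 3 libraries. H2afz falls from 359 to 476 CPM in proliferating controls to 187 to 200.3 CPM in quiescent controls, H2afx falls likewise, and H2afy2 is high in experiment 9 only.

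Cenpa, the H3 variant of centromeres, is outside the symbol rule and fell further than any of the 20 tested members. It was at 33.0 ± 11.2 CPM in proliferating and 1.31 ± 0.711 CPM in quiescent controls, with a log2 fold change of -4.63 (edgeR adjusted p = 0.00135). In knockdown cells the means were 35.1 ± 19.4 and 3.04 ± 2.09 CPM, with a log2 fold change of -3.55 (edgeR adjusted p = 0.00429). Its chaperone gene Hjurp also fell, from 13.8 ± 1.61 to 7.77 ± 2.73 CPM in controls (log2 fold change -0.83, edgeR adjusted p = 0.0423).

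The genes that make the 3′ end of histone messages, or switch histone genes on, mostly had lower levels in quiescence. Of 30 such genes in the table, all tested, 10 fell and 1 rose in controls (17 and 1 with the block), with a median log2 fold change of -0.40. Of all tested genes 11.7% fell and 8.33% rose there (18.5% and 16.8% with the block). In knockdown cells 10 of the 30 fell and 1 rose (15 and 1 with the block), against 10.8% and 7.59% of all genes (17.2% and 15.9%). Slbp, the stem-loop binding protein, fell from 51.5 ± 5.01 to 19.8 ± 3.70 CPM (log2 fold change -1.38, edgeR adjusted p = 0.000601). Casp8ap2, the FLASH protein of the cleavage complex, fell from 29.2 ± 3.30 to 17.3 ± 4.09 CPM (log2 fold change -0.76, edgeR adjusted p = 0.0263), and the histone mRNA exonuclease gene Eri1 from 82.6 ± 4.76 to 54.2 ± 4.63 CPM (log2 fold change -0.61, edgeR adjusted p = 0.00268). The cyclin E genes, whose kinase drives histone gene transcription through Npat, also fell, Ccne2 with a log2 fold change of -4.78 and Ccne1 with -2.23 (edgeR adjusted p = 2.85e-05 and 0.00119). Npat itself was at 46.7 ± 3.44 and 46.2 ± 4.27 CPM, with a log2 fold change of -0.02 (edgeR adjusted p = 0.953).

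The U7 particle that cuts at the stem-loop gave no call in controls without the block. The log2 fold change of Lsm11 was -0.66 (edgeR adjusted p = 0.0613), that of Zfp473 was -1.70 (adjusted p = 0.0520) and that of Lsm10 0.34 (adjusted p = 0.133). With the block Lsm11 and Zfp473 fell (edgeR adjusted p = 0.0105 and 0.0166), and Zfp473 also fell in knockdown cells without it (-1.83, adjusted p = 0.0381). Zcchc11, a terminal uridylyl transferase described as marking histone messages for decay, was the gene that rose, from 17.1 ± 4.41 to 35.5 ± 5.39 CPM (log2 fold change 1.05, edgeR adjusted p = 0.00627).

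The list of 31 chaperone and deposition genes includes Cenpa, whose values are given above. Of these 31, 15 fell and none rose in quiescent controls (19 and none with the block), with a median log2 fold change of -0.50. Of all tested genes 11.7% fell there (18.5% with the block). In knockdown cells 14 fell and none rose (17 and 1 with the block), beside 10.8% of all genes that fell (17.2%). Chaf1a and Chaf1b, subunits of the CAF-1 complex that loads H3.1 behind the fork, had log2 fold changes of -2.61 and -2.24 (edgeR adjusted p = 1.63e-05 and 2.99e-05). The histone carriers Asf1b and Nasp had log2 fold changes of -4.07 and -1.94 (edgeR adjusted p = 5.70e-05 and 0.00042). The H3.3 chaperone genes Hira and Daxx had log2 fold changes of -0.35 and 0.19 (edgeR adjusted p = 0.0843 and 0.502), and Asf1a, the replication-independent partner of Asf1b, of -0.11 (adjusted p = 0.741). Whether these genes differ from the CAF-1 genes was not tested.

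No histone member was called for the knockdown of Stag2. In proliferating cells 0 of 20 tested members passed in either direction (edgeR, with or without the block, and DESeq2), against 0.0242% of all genes, all of them lower. There 0 members were under an unadjusted p of 0.05 without the block and 1 with it, against 228 and 645 of the 12406 genes. In quiescent cells 0 of 20 passed with edgeR, against 0.435% of all genes (0.153% higher and 0.282% lower) and 3.55% with the block, where again no member passed. Under an unadjusted p of 0.05 there was 1 member without the block, Hist1h4i, which DESeq2 called, and there were 6 with the block, against 1489 and 2527 of the 12406 genes. The share of all genes that DESeq2 called was not counted. The interaction, the knockdown effect in quiescent minus that in proliferating cells, gave 0 members with edgeR or DESeq2, against 0% of all genes with edgeR. Under an unadjusted p of 0.05 it gave 1 member (again Hist1h4i, and 1 with the block), against 219 and 590 of the 12406 genes. The median log2 fold change of the 11 Hist-named genes was 0.24 in proliferating and 0.48 in quiescent cells, and of the 9 variant-named genes -0.05 and -0.02, against -0.0022 and 0.016 over all tested genes.

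Hist1h4i (chr13:22040636-22041362), an H4 gene whose sequences are printed above, had 11, 25 and 35 counts in proliferating controls of experiments 5, 7 and 9 and 17, 25 and 33 in proliferating knockdown cells. In quiescent controls it had 10, 7 and 10 counts and in quiescent knockdown cells 81, 18 and 43. As levels these were 0.690, 0.428 and 0.596 CPM against 3.67, 1.07 and 2.52 CPM, so that every knockdown library was above every control library in quiescence. The log2 fold change was 2.08 (edgeR adjusted p = 0.145, SE 0.55), 2.08 with the block (edgeR adjusted p = 0.0588) and 2.09 by DESeq2 (adjusted p = 0.0316). Without quiescent knockdown replicate 5 it was 1.64, and the adjusted p over the fits that left out 1 library ran from 0.0879 to 0.440. The interaction was 1.97 (SE 0.76, unadjusted p = 0.0245, edgeR adjusted p = 1.00). Its quiescence effect had opposite signs in the 2 genotypes, -1.23 (edgeR adjusted p = 0.139, SE 0.56) in controls and 0.73 (edgeR adjusted p = 0.352, SE 0.52) in knockdown cells.

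Hist3h2a was the other member whose groups did not overlap between quiescent control and knockdown cells, 2 of 20 members higher without overlap against 10.2% of all tested genes, and none lower against 8.85%. In proliferating cells no member was higher or lower without overlap, against 2.66% and 2.65%. Its levels were 32.4, 27.1 and 27.0 CPM in control and 55.4, 33.2 and 35.3 CPM in knockdown cells, with a log2 fold change of 0.52 (edgeR adjusted p = 0.450, SE 0.25, and 0.0761 with the block). Without quiescent knockdown replicate 5 the log2 fold change was 0.25. For Hist1h1d the log2 fold change was 1.13 (edgeR adjusted p = 0.471, SE 0.57) and for Hist2h3c2 1.35 (adjusted p = 0.592, SE 0.84). Summed over the 68 rows, quiescent knockdown cells were above quiescent controls by ratios of 1.58, 1.59 and 1.06 in experiments 5, 7 and 9, and proliferating knockdown cells above proliferating controls by 1.18, 1.14 and 1.16. The 57 untested rows summed to 4.58, 2.68 and 4.10 CPM in quiescent knockdown cells and 2.97, 1.59 and 2.09 CPM in quiescent controls of experiments 5, 7 and 9, which was not tested. These quiescence and knockdown comparisons share their groups and are not independent of each other.

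Of the genes around the histones, 1 of the 30 for histone mRNA passed for the knockdown in quiescent cells: Ccne2, at 0.299 ± 0.0996 CPM in control and 2.44 ± 0.319 CPM in knockdown cells (log2 fold change 3.01, SE 0.35, edgeR adjusted p = 0.0053). None of the 31 chaperone and deposition genes passed, with 5 under an unadjusted p of 0.05, and with the block Chaf1a did (log2 fold change 0.73 without it, edgeR adjusted p = 0.0109 with it). Of the 25 S phase genes 1 rose, Mcm5 (log2 fold change 1.497, edgeR adjusted p = 0.0451), and 5 with the block, with a median over the 25 of 0.51. Of all tested genes 0.153% rose in this contrast, 1.59% with the block, and 1489 of 12406 were under an unadjusted p of 0.05. Slbp was at 19.8 ± 3.70 and 26.0 ± 2.74 CPM, with a log2 fold change of 0.39 (edgeR adjusted p = 0.432). In proliferating cells no gene of these 3 lists passed, with 0, 0 and 1 of them under an unadjusted p of 0.05. Of all 12406 tested genes 0.0242% passed there and 228 were under an unadjusted p of 0.05.

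**Figure D5:**
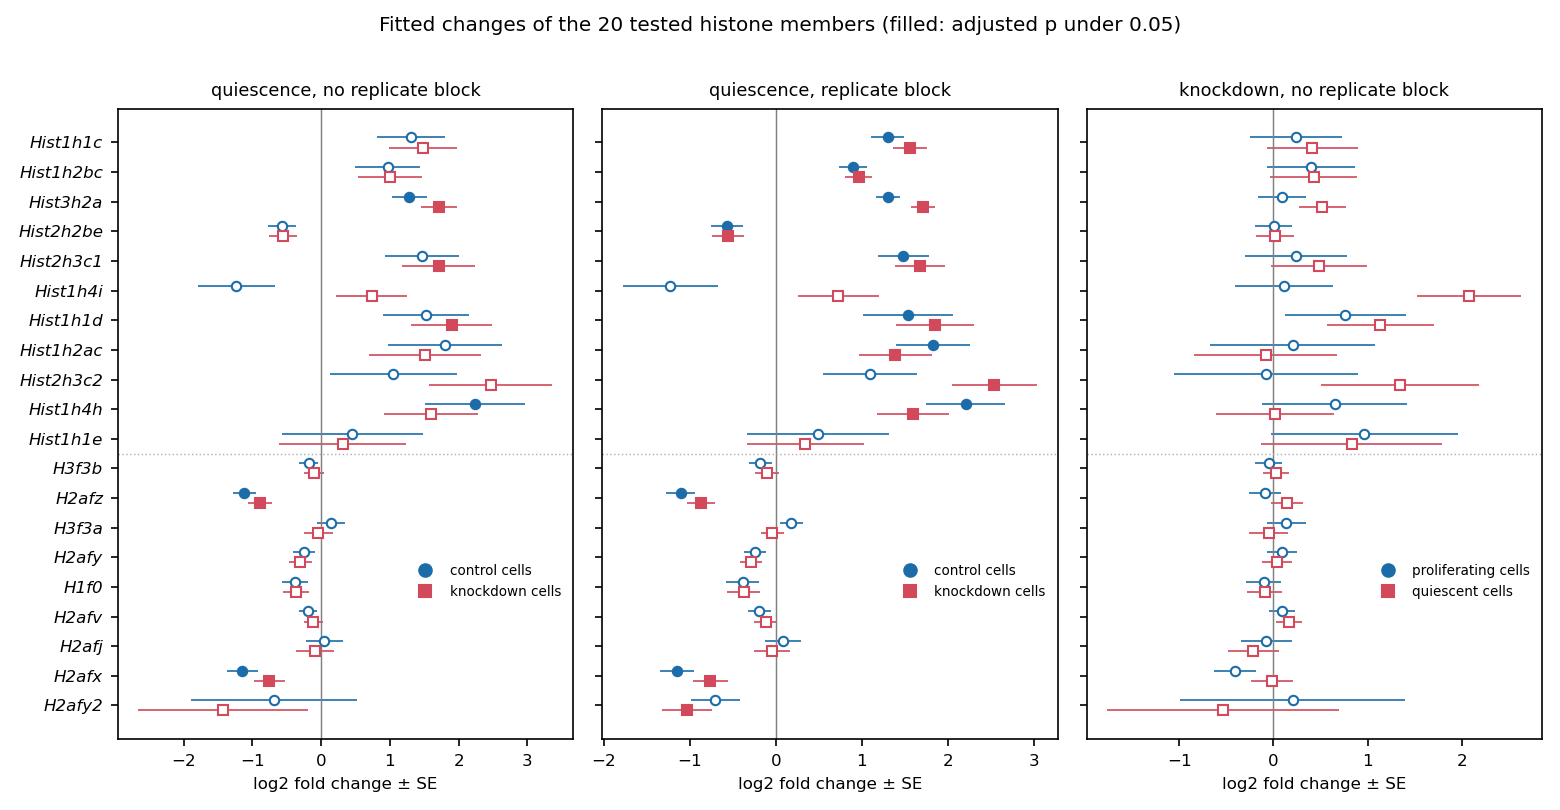
Log2 fold changes with their SE for the 20 tested histone members, Hist-named above and variant-named below the dotted line. The left and middle panels give quiescence against proliferation without and with the experiment as a replicate block, and the right panel the knockdown without it. Filled symbols have an adjusted p under 0.05: 4 in controls without the block (Hist3h2a, Hist1h4h, H2afz and H2afx) and none in the knockdown panel. Hist1h4h passed the filter only with its quiescent libraries, as did Hist1h1d, Hist1h1e, Hist1h2ac and Hist2h3c2.

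Promoter letters differed in frequency between the classes and between histone families, given here as a description. RefSeq promoters (GRCm38.p6, 250 bases before to 50 after the start) were matched for 61 of 68 Hist-named genes (62 promoters) and 11 of 14 variant-named genes where the RefSeq gene overlaps the GENCODE gene, and each motif was searched on both strands. The CCAAT box was in 53 of 62 Hist-named promoters (85.5%), in 7 of 11 variant-named promoters (63.6%) and in 37.4% of all 32851 promoters. By family it was in every H1, H2A, H2B and H3 promoter of the Hist-named genes and in 3 of 12 H4 promoters. The letters TTTGAA were in 28 of 62 Hist-named (45.2%) and 1 of 11 variant-named promoters and in 17.9% of all. The octamer ATTTGCAT, bound by Oct factors in H2B promoters, was in 14 of 62 (22.6%), 1 of 11 and 1.74%, and by family in 7 of 17 H2B, 7 of 17 H2A and no H1, H3 or H4 promoters. Both tested H4 genes, Hist1h4h and Hist1h4i, held none of the 3 motifs in this window, while Hist3h2a held all 3. Divergent H2A and H2B genes can share promoter sequence, so these counts are not independent.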

How the data were processed

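RNA of 12 libraries was counted per gene by the authors, and the deposited table holds whole-number counts for 23337 gene symbols. Per the submitters' processing notes, Bowtie, TopHat, HTSeq and DESeq2 were used with build mm10, while their versions, the gene models counted and whether strand was used are not given in the sources used here. Per the labels' protocols, poly(A)+ RNA went into a stranded dUTP library kit with ERCC spike-ins.

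Counts as deposited were tested with edgeR 4.0.16 (quasi-likelihood, TMM scaling, R 4.3.3, limma 3.58.1) on the 12406 genes left by filterByExpr with a minimum count of 10, in 1 fit of the 4 groups over all 12 libraries with contrasts for quiescence in each genotype, knockdown in each state and their interaction. P-values were adjusted over the 12406 genes by Benjamini-Hochberg, and 0.05 was the threshold. CPM are on TMM-scaled totals, log2 CPM within experiments has a prior count of 2, and SE is the log2 fold change over the root of F. Library totals of 14524429 to 21987539 counts set the precision, and the floor of 3 counts covers counting error only.

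The experiment number, which the labels also give as a batch, pairs libraries across groups: deviations of same-numbered libraries from their group means correlated with a mean r of 0.526 (0.225 to 0.789, 18 pairs) and those of different numbers with -0.259. The fit with the experiment as a block is given where it changes a call. No replicate pair was identical.

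Named genes were Stag2, all tested variants, the 6 Hist-named genes highest per kb, up to 6 with the largest changes each way in quiescence, known sources of tailed messages, any member called for knockdown or interaction, Cenpa, 15 pathway genes and up to 3 called genes each way per list. Members and lists were chosen with earlier results of these data known. Alternatives were the replicate block, DESeq2 1.42.0, RLE scaling, no filter, a mean count of 50, only the libraries compared, and leaving out each library. The script was tested on simulated data. Annotation and stem-loops came from GENCODE M21, promoters from RefSeq.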

Additional observations from a re-analysis of the deposited data

How the results depend on the processing

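The replicate block raised the Hist-named genes that rose in quiescence from 2 to 7 in controls and from 3 to 8 in knockdown cells. It added 1 that fell (Hist2h2be) in each. Of the 11 tested genes, 5 passed the filter only with their quiescent libraries. The quiescence counts and Hist-named medians, here and below, therefore support nothing by themselves. Over the other 6 genes, the block raised those that rose from 1 to 4 in controls and from 2 to 4 in knockdown cells. The paired fit changed no call of the 20 histone members in the knockdown contrasts. It moved the Hist-named median for knockdown in proliferating cells from 0.24 to 0.25. DESeq2 called 4 Hist-named genes higher (Hist1h1c, Hist1h4h, Hist2h3c1, Hist3h2a) and 1 lower (Hist2h2be) in quiescent controls, 5 higher in quiescent knockdown cells, and 1 member (Hist1h4i) for knockdown in quiescent cells. Without a filter 1 Hist-named gene (Hist3h2a) rose in each quiescence contrast, and Hist-named medians became 0 in controls, 0.28 in knockdown cells, 0.01 (0.0148) for knockdown in proliferating cells and 0.78 for the interaction, and the variant-named median in controls -0.19, over more genes with few counts. With a mean count of 50 or more, 1 gene (Hist3h2a) rose in each quiescence contrast, and medians were 1.14 (1.135) in controls and 0.17 for knockdown in proliferating cells, over 4 Hist-named genes. With only the compared libraries, 1 Hist-named gene rose in controls, 1 variant (H2afz) fell in knockdown cells, and those medians were 1.13 and 0.18. RLE scaling moved no count of calls by more than 1.5 times. For DESeq2 and the other settings apart from the block, calls over all genes were not counted. No share of all genes can therefore stand beside these counts of members.

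Leaving out each library in turn gave, in quiescent controls, 1 to 3 Hist-named genes higher, 0 to 1 lower, 2 variants lower, a Hist-named median of 0.98 to 1.55 and a variant-named median of -0.36 to -0.12. In quiescent knockdown cells it gave 1 to 4 Hist-named genes higher, 1 to 3 variants lower, and medians of 1.13 to 1.86 and -0.32 to -0.17. For knockdown the medians ran from 0.020 to 0.55 and -0.15 to 0.049 in proliferating cells, from 0.12 to 0.71 and -0.07 to 0.04 in quiescent cells, and for the interaction from -0.18 to 0.52 and -0.09 to 0.10. No member passed for knockdown or the interaction in any of these fits. Signs turned, none past the threshold, for Hist1h4i for knockdown in proliferating cells (-0.23 to 0.50), for H2afj (-0.15 to 0.47), H2afy2 (-2.43 to 1.02) and Hist1h1e (-0.31 to 1.63) in quiescent controls, and for H2afj (-0.22 to 0.047), H2afy2 (-2.55 to 0.65), H3f3a (-0.20 to 0.094), H3f3b (-0.20 to 0.025) and Hist1h1e (-0.15 to 1.13) in quiescent knockdown cells. The cause of these shifts was not tested. Low counts kept 57 Hist-named rows out of the tests, and shared sequence and an unstated counting annotation limit comparison between members.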
